A study of Homo sapiens with 24 samples.

Results

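The 58 genes described here build, fold, export and survey secreted and membrane proteins, or belong to the stress responses that act when this route is overloaded. They were chosen by name among the protein-coding (catalog) probes of a custom Agilent array, with gene names beginning with SEC, SSR, SRP, SPCS, PDIA, TMED, COP, OST, HERPUD, EDEM, DERL, SEL1L and the like, or naming stress-response genes such as TRIB3, ASNS and CHAC1. They are 58 of 15102 catalog gene names and 74 of 17535 catalog probes, and the rule uses names alone. The probe of SEC11A carried a spot-quality mark and was left out, which left 73 probes of 57 genes.

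MRC5 cells, a line of normal human lung fibroblasts, were left untreated (control) or treated with 0.2 mM hydrogen peroxide for 2 h (oxidative stress, OS). Each condition gave total RNA and 3 pools of sucrose gradient fractions, named untranslated (free ribonucleoprotein particles and single ribosomes), low (a few ribosomes per transcript) and high (many ribosomes per transcript), which makes 8 groups of 3 replicates and 24 arrays. Control untranslated replicates 1 and 2 carry the same sample number in the labels, so it is uncertain whether they are separate preparations. All cells for the gradients received cycloheximide, which holds ribosomes on their transcripts, shortly before harvest. The same amount of RNA was labelled from each sample, so a value is the relative share of a transcript within its pool and not the amount in the cell. A signal from bulk cells cannot tell fewer cells with a transcript from less of it per cell.

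Proteins bound for secretion or for a membrane carry a signal sequence that the signal recognition particle (SRP) binds on the ribosome, and the whole complex docks at the SEC61 channel of the endoplasmic reticulum (ER). In the ER lumen the signal sequence is cut off, sugars are attached, and chaperones and disulfide isomerases fold the chain. COPII-coated vesicles carry the product to the Golgi, COPI-coated vesicles bring components back, and failed products are returned to the cytosol and degraded. Unfolded protein in the ER, or a lack of amino acids or oxidative damage, slows translation and raises a set of transcripts through the unfolded protein and integrated stress responses, in which ATF4 is a central factor.

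Several of these transcripts have regulatory elements that are textbook features of the responses, and these are shown because the genes that carry them behaved differently from each other in the results. The ER stress element (ERSE, searched as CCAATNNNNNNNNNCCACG), its short form ERSE-II (ATTGG and CCACG with 1 base between) and the ATF4-type element (CARE, TGATGNAA) were searched on both strands of RefSeq promoters, a short stretch around each gene's start in GRCh38.p14. Promoters were given for 46 of the 52 member genes that had a current symbol. Capitals mark the match, and each sequence is printed along the strand of its gene.
HERPUD1, ERSE-II at chr16:56932020-56932040: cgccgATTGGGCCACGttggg
HERPUD1, CARE in reverse orientation at chr16:56931961-56931978: gcgggTTGCATCAgcccg
CALR, ERSE in reverse orientation at chr19:12938379-12938407: ccacgCGTGGTCGACCATCATTGGtcggt
CANX, ERSE at chr5:179698773-179698801: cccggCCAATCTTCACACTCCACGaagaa
ASNS, CARE at chr7:97872464-97872481 on the minus strand: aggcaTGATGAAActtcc
CHAC1, CARE in reverse orientation at chr15:40953257-40953274: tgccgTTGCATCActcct
The ERSE letters were found in 27 of all 35116 promoters (0.0769%) and among the members in those of CALR and CANX, and the ERSE-II letters in 19 promoters (0.0541%), with HERPUD1 as the only member. The shorter CARE letters were found in 1270 promoters (3.62%), including those of the members ASNS, CHAC1, HERPUD1, PPP1R15B, SLC51B (named OSTBETA on the array) and SRPRB. A match describes these letters in this window and is not evidence that a factor binds there.

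The probes that the results turn on are 60-base oligonucleotides whose first 30 bases are given here, as the array design gives them, with the position of the whole probe in GRCh37. HERPUD1 and TRIB3 rose in total RNA, and the pair of SEC13 probes lay in opposite parts of the gradient. Upon OS the high minus untranslated pool difference was smaller for the ASNS, PDIA3 and SEC61A1 probes. It was less negative for those of SEC22C and SRP9.
HERPUD1, chr16:56977700-56977759: tgcagtgctttactttaaactaaggggaac
TRIB3, chr20:378107-378166: acacttggggtccacaatcccaggtccata
ASNS, chr7:97481461-97481520, minus strand: ggactgtgggtagataggggaacaatgaga
PDIA3, chr15:44064742-44064801: cagggttaagaaccatctgccttggaagat
SEC61A1, chr3:127789960-127790019: cacactctggagaccttgctggcagtgcta
SEC22C, chr3:42599071-42599130, minus strand: catcatgtgtgctgccctgaatctcattcg
SRP9, chr1:225977243-225977302: gaaagcctttatttacttttggaaactgaa
SEC13, chr3:10353650-10353709, minus strand: cctgctgacttacaccggggaaggccaatg
SEC13, chr3:10356659-10356718, minus strand: ttcatctgctcatcctcaaaattgggccaa

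Of the 73 probes, 63 were well above background on all 3 arrays of at least 1 group, 49 of them in all 8 groups, and each of the 73 was above background on at least 1 array. Single probes stand for 45 genes, 9 genes have 2 probes, SEC24A and SRP9 have 3 and SEC13 has 4. The 10 probes that never reached all 3 arrays of a group are those of OSTBETA, OSTalpha, ERO1LB, SEC14L4, COPE, SEC16B and SEC1, one of the DERL3 probes and both SEL1L2 probes, and no difference is given for them. By role, 5 probes belong to the SRP and its receptor, 5 to the translocon and the translocon-associated (TRAP) complex, 2 to signal peptidase, 2 to the oligosaccharyltransferase, 8 to folding, 9 to ER-associated degradation, 13 to the COPII coat and ER export, 5 to the COPI coat, 4 to the TMED cargo receptors and 7 to the unfolded protein and integrated stress response. The other 13 probes share only the letters of the rule or have no clear place, for example the probes of SEC14L1, a lipid-binding protein of the cytosol, OSTM1, ASNSD1 and the pseudogene TMED11P.

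The fibroblast label held, with 4 of 4 fibroblast marker genes above background on all total RNA arrays against 0 of 2 epithelial, 1 of 3 endothelial and 1 of 1 leukocyte marker genes, the last by 1 of its 3 probes. The third OS low array stood apart, with 95.4% of catalog probes and all 73 member probes above background against 43.4 to 67.7% and 53 to 68 on the other 23 arrays. The SD of the log2 difference to its 2 sister arrays was 1.5649 and 1.5853, against 0.2001 to 0.4297 for the other replicate pairs. Since the model shares one estimate of the spread, this array also widened the errors outside its own pool, and the counts without it stand beside the main ones. All values below are log2 normalized intensities, differences are log2 differences with their SE from the limma fit (3 arrays per group), and a probe was called at a Benjamini-Hochberg adjusted p under 0.05.

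**Figure D1:**
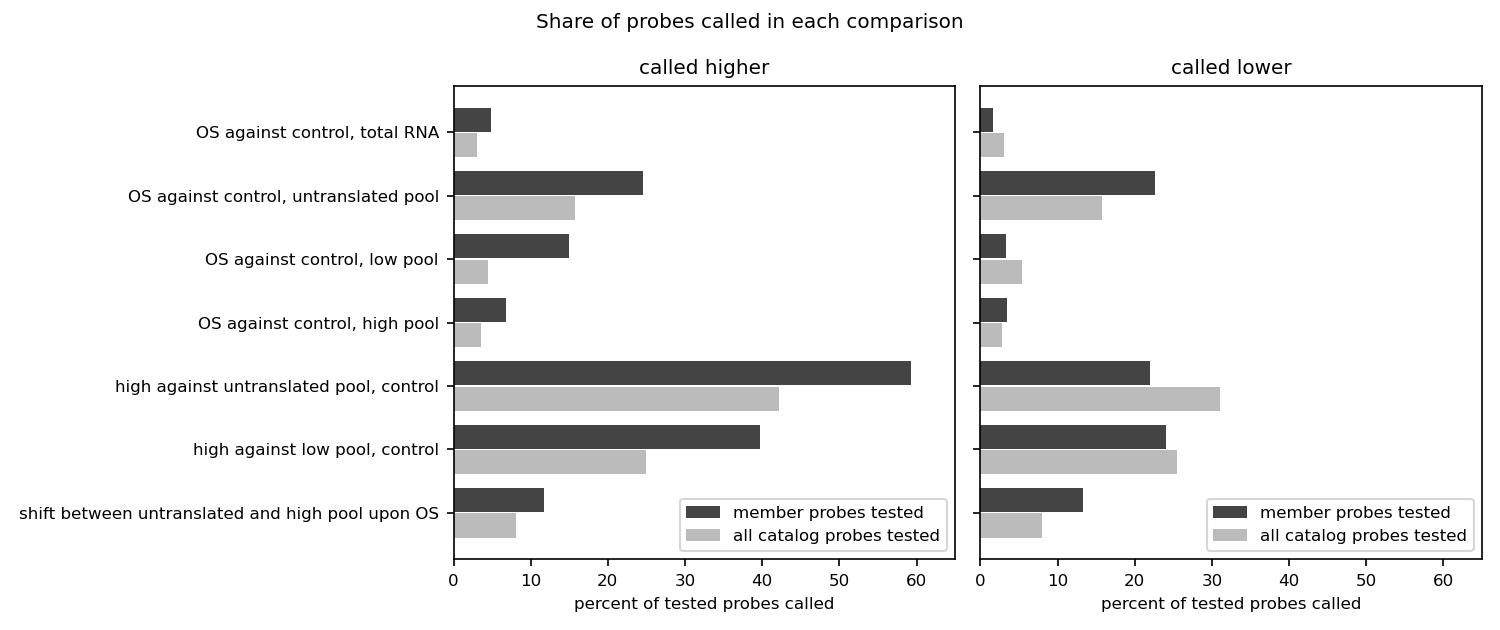
Percent of tested member probes (dark) and of all tested catalog probes (light) called higher and called lower in each of the 7 comparisons. The members stood at 59.3% higher against 42.2% of catalog probes in the comparison of the high with the untranslated pool in control cells, and near the catalog shares in total RNA.

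In total RNA, which asks whether a transcript's share of all labelled RNA had moved after 2 h, few members passed the test. HERPUD1, a membrane protein that organises the degradation of misfolded ER proteins, TRIB3, a pseudokinase of the integrated stress response, and the pseudogene TMED11P were called higher, and one probe of SEC61A2, a second form of the channel subunit, was called lower. These were 3 higher and 1 lower of 62 tested member probes (4.84% and 1.61%), beside 3.07% higher and 3.06% lower of 10630 catalog probes. The chaperones, isomerases, coats and cargo receptors gave no call in limma. At an unadjusted p under 0.05 there were 4 higher and 3 lower among all members, but the catalog share at that threshold was not computed.

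HERPUD1 read 14.60, 14.64 and 14.67 in control and 15.12, 15.31 and 15.20 in OS. The groups did not overlap, and the difference was 0.58 ± 0.13 (adjusted p = 0.00535). TRIB3 read 13.65, 13.57 and 13.55 in control and 14.38, 14.31 and 14.25 in OS. Every OS array lay above every control array, by 0.72 ± 0.14 on average (adjusted p = 0.00192). TMED11P was not above background on any control array (3.22, 3.16 and 3.24) and read 7.28, 6.84 and 7.17 in OS. It was at least 3.82-fold higher (adjusted p = 0.00022), where the bound sets the OS mean against the lowest signals still above background on the control arrays. This pseudogene was not counted among the TMED receptors.

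The SEC61A2 probe A_33_P3336287 read 6.41, 6.18 and 6.76 in control and 5.18, 5.67 and 5.55 in OS, and was above background on 2 of the 3 OS arrays. Its difference of −0.99 ± 0.30 (adjusted p = 0.0477) passed the threshold narrowly, and the second probe of the gene, at −0.33 ± 0.69, was not called. The SEC61A2 call was lost on leaving out any of 17 single arrays, with adjusted p up to 0.217, whereas those of HERPUD1, TRIB3 and TMED11P held when any 1 of the 24 arrays was left out. When each array was instead scaled to its 75th percentile, the HERPUD1 and TRIB3 calls were lost, with or without the third OS low array. Their limma adjusted p rose to as much as 0.957 and 0.88, while the call of TMED11P held. Without the third OS low array the counts were 3 higher and 3 lower, beside 5.67% and 7.71% of catalog probes, with SEC14L1 (one probe) and TRIB2 joining those lower.

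The other stress-response members did not pass the test in total RNA. ASNS, asparagine synthetase and a classical ATF4 target, differed by 0.14 ± 0.18, CHAC1, a glutathione-degrading enzyme, by −0.07 ± 0.19, and PPP1R15B, a subunit of the phosphatase that acts on eIF2α, by −0.03 ± 0.14. DDIT4L, a relative of the mTOR inhibitor DDIT4, differed by −0.15 ± 0.25 and TRIB2, a relative of TRIB3, by −0.44 ± 0.36, although its groups did not overlap (8.68, 9.04 and 8.58 against 8.18, 8.41 and 8.38). ERN1, the ER stress sensor IRE1α, was not above background on all arrays of either total RNA group and was not tested. Of the chaperones with an ERSE match, CALR read 17.51 on every control array and 17.35, 17.59 and 17.30 in OS, a difference of −0.10 ± 0.17. Quantile normalization gives the same value to the same rank, so the equal control values reflect equal ranks and not equal raw signals.

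SEC11C, a catalytic subunit of signal peptidase, read 3.44 on the first control total array and 12.54 and 12.65 on the others, against 12.91, 12.76 and 12.81 in OS. The single dim spot gave a difference of 3.28 ± 1.45 (adjusted p = 0.239), with 9.47 on that slide and 0.22 and 0.15 on the other 2 slides, and it widened the error of SEC11C in every other comparison.

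Of 15 tested probes for unfolded protein response genes that the name rule leaves out, 1 was called higher in total RNA and 0 lower, and of 9 for other translocation, glycosylation and coat genes 0 were called, beside the catalog's 3.07% and 3.06%. The call was ATF4 itself, at 0.70 ± 0.12 (adjusted p = 0.000566).

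**Figure D2:**
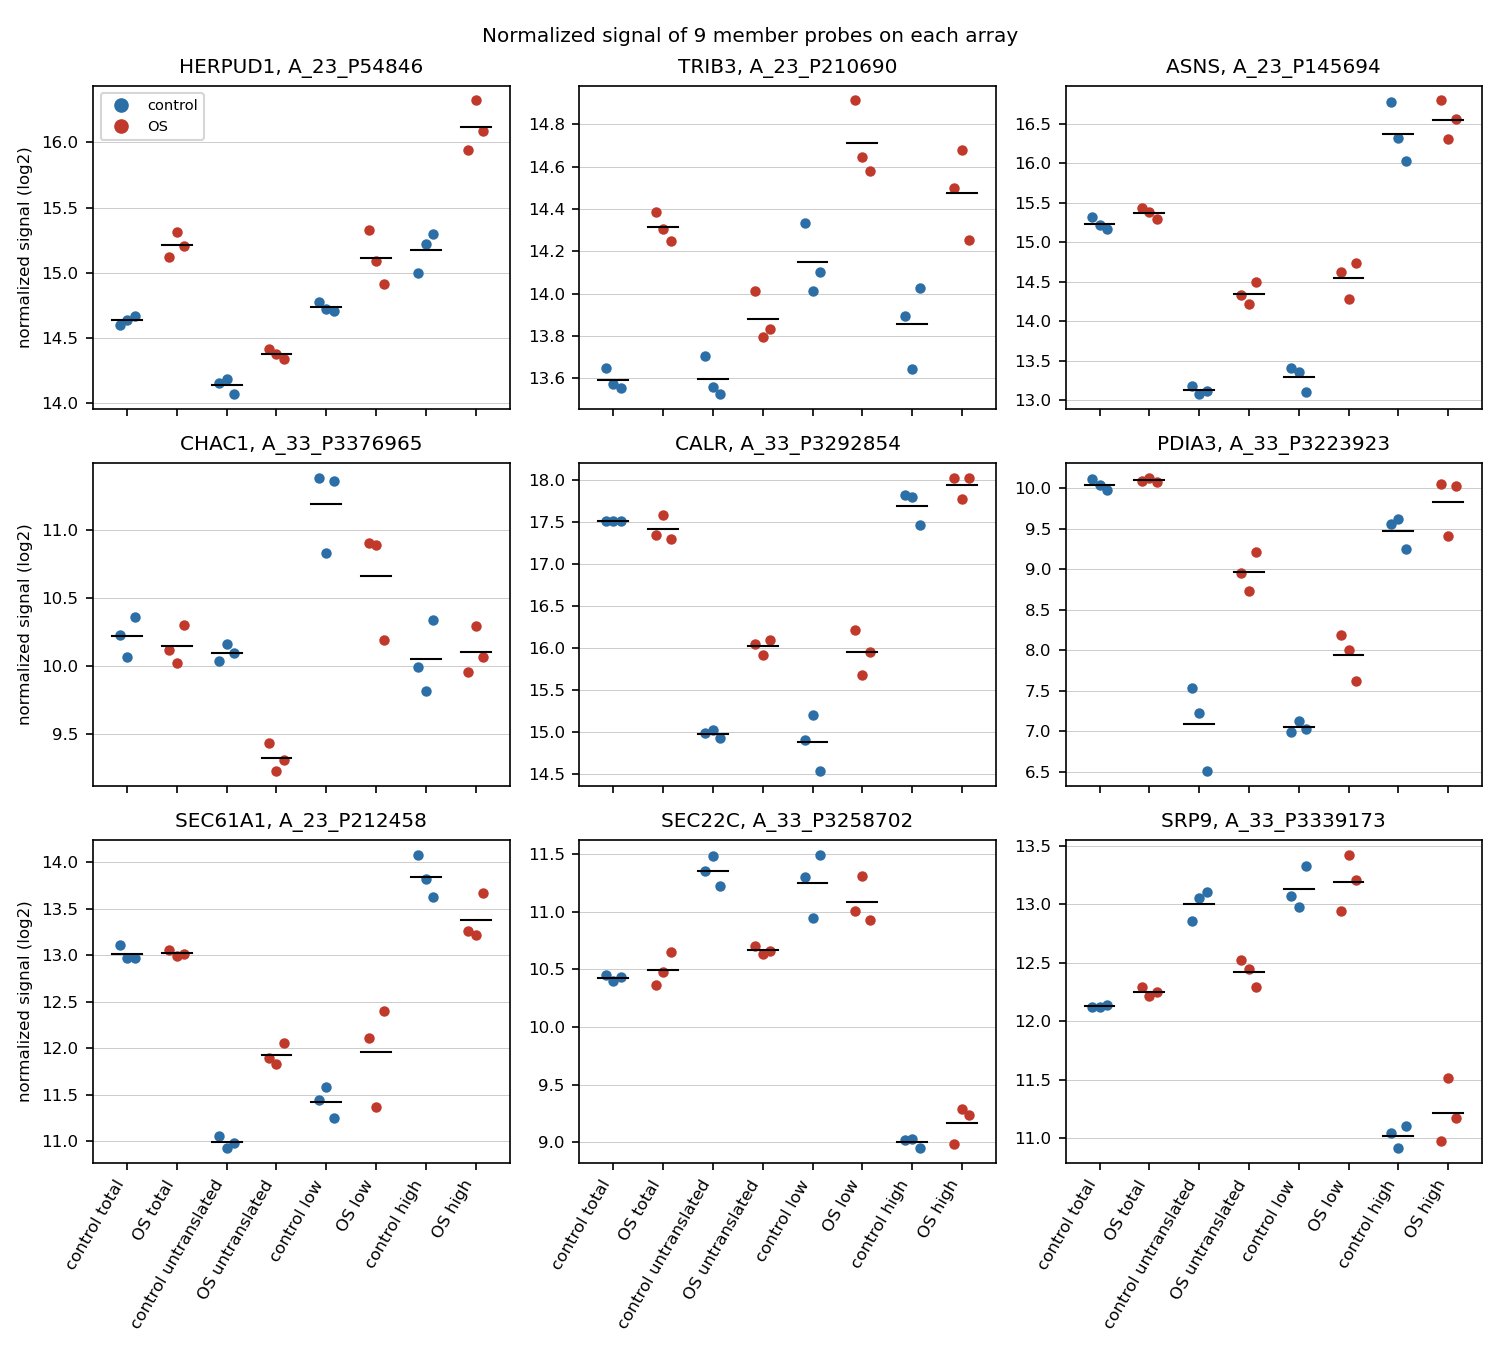
Log2 normalized intensity of 9 member probes on each of the 24 arrays, by pool, with control in blue, OS in red and a line at each group mean. HERPUD1 and TRIB3 were higher in OS total RNA, and the ASNS, CALR, PDIA3 and SEC61A1 probes were higher in the OS untranslated pool with near-equal total RNA.

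The gradient of untreated cells shows where each transcript sits before stress. The transcripts of the folding enzymes lay deep in the polysomes, with all 7 tested probes of CALR, CANX, PDIA3, PDIA4 and PDIA5 higher in the high than in the untranslated pool. The 3 probes of the short SRP subunit SRP9 were lower, a call that the 75th percentile scaling did not give. In all, 35 member probes were called higher in the high pool and 13 lower of 59 tested (59.3% and 22%), beside 42.2% and 31% of 9880 catalog probes, and the member median was 0.95 against 0.35. Without the third OS low array 38 were higher and 14 lower, beside 47.4% and 34.7% of catalog probes. These splits rest on the scaling, which moves the middle of all catalog probes here. The catalog median was 1.64 after scaling each array to its 75th percentile, where 42 members were called higher and 2 lower, 0.74 after normexp correction (44 and 7), and 1.05 in the authors' own normalization over all probes together (44 and 8). The share of catalog probes called was not computed under these scalings, here or below. Such member counts therefore cannot be set against the catalog.

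In the targeting step, SRP54, the subunit that binds the signal sequence, read 8.40, 7.50 and 7.93 in the untranslated pool and 11.52, 11.23 and 11.05 in the high pool, a difference of 3.32 ± 0.26 (adjusted p = 1.8e-09). SRP9, which belongs to the part of the particle that pauses elongation, showed the reverse on all 3 probes, at −2.08 ± 0.19, −1.98 ± 0.14 and −1.87 ± 0.14. Under the 75th percentile scaling these were −0.41, −0.36 and −0.23, and none of the 3 was called with or without the third OS low array. Its probe A_33_P3339173 read 12.85, 13.06 and 13.10 in the untranslated and 11.04, 10.91 and 11.11 in the high pool. SRPRB, the membrane anchor of the SRP receptor, was higher by 0.57 ± 0.12.

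Of the channel, SEC61A1 read 11.06, 10.93 and 10.98 in the untranslated pool and 14.08, 13.83 and 13.63 in the high pool, a difference of 2.86 ± 0.20 (adjusted p = 3.15e-10). SEC63, which works with the channel and the lumenal chaperone, was higher by 1.40 ± 0.13, and the SEC61A2 probe A_24_P415280 was at least 1.84-fold higher, since no untranslated array had it above background. SSR4, a small subunit of the TRAP complex, was lower, at −0.50 ± 0.13, a direction that turned under the 75th percentile, normexp and authors' scalings. RPN2, a subunit of the oligosaccharyltransferase, was higher by 2.15 ± 0.20, and OSTC, a small accessory subunit of it, lower at −0.77 ± 0.09, except under the 75th percentile scaling, where it turned.

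Among the folding genes, CALR, a lectin chaperone of the lumen, read 14.98, 15.02 and 14.92 in the untranslated pool and 17.82, 17.81 and 17.46 in the high pool, a difference of 2.72 ± 0.16 (adjusted p = 4e-11). PDIA3, the disulfide isomerase that works with it, differed by 2.66 ± 0.28 and 2.39 ± 0.22 on its 2 probes. The dimmer probe of CANX, the membrane-bound relative of CALR, was not above background on the untranslated arrays and was at least 2.9-fold higher in the high pool, and its other probe differed by 0.95 ± 0.14. PDIA4 differed by 1.64 ± 0.19 and PDIA5 by 0.98 ± 0.19.

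Of the degradation genes, HERPUD1 was higher in the high pool by 1.04 ± 0.12. SEL1L, the scaffold of the ubiquitin ligase complex, was higher by 1.99 ± 0.71 (adjusted p = 0.0198), a call lost on leaving out any of 3 single arrays, namely control high 1, control high 2 and control untranslated 3, with adjusted p up to 0.0751. One probe of EDEM3, a mannose-trimming enzyme, was called at 1.03 ± 0.17 and the other, at 1.00 ± 0.70, was not. The DERL3 probe A_33_P3724155 was lower, at −1.52 ± 0.13, a difference that was −0.0029 and not called under the 75th percentile scaling, with or without the third OS low array.

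The coat genes divided within families. SEC23A, an inner COPII coat subunit, was higher by 2.60 ± 0.11 and 2 probes of its partner SEC24A by 1.66 ± 0.14 and 1.19 ± 0.28. The third SEC24A probe, not above background in the untranslated pool, was at least 1.48-fold higher. SEC22C, of a family of membrane proteins that act in transport between ER and Golgi, was lower at −2.35 ± 0.14 (−0.68 and not called under the 75th percentile scaling), and its relative SEC22B was higher at 0.64 ± 0.13 and SEC22A differed by −0.18 ± 0.11. COPB1, COPG2 and COPA of the COPI coat were higher by 2.26 ± 0.17, 2.11 ± 0.41 and 1.05 ± 0.32 (COPG2, like SEL1L, was above background on 2 of 3 untranslated arrays), and COPZ1, its small subunit, differed by −0.03 ± 0.14.

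SEC13, an outer coat subunit that also belongs to the nuclear pore, gave opposite results on its probes. The probe at chr3:10353650-10353709 read 12.68, 12.79 and 12.53 in the untranslated and 13.99, 14.19 and 14.36 in the high pool, a difference of 1.51 ± 0.17. The probe at chr3:10356659-10356718 read 8.89, 9.18 and 9.44 in the untranslated and 6.53, 6.62 and 6.52 in the high pool, a difference of −2.61 ± 0.54. Another probe, A_33_P3210900, was also lower (−2.21 ± 0.86, adjusted p = 0.0319), although leaving out control untranslated 1, control untranslated 3, control high 1 or control high 2 took its adjusted p to as much as 0.107. It was above background on 2 of 3 high arrays. The array design ties the first of these probes to a RefSeq transcript of SEC13 and the other 2 to a cDNA and an Ensembl record, so no single placement is given for the gene.

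Of the stress-response members, ASNS had one of the largest differences, reading 13.18, 13.08 and 13.12 in the untranslated and 16.78, 16.32 and 16.02 in the high pool (3.25 ± 0.17, adjusted p = 7.67e-12). PPP1R15B was higher by 0.99 ± 0.14 and DDIT4L by 0.80 ± 0.25. TRIB3 (0.26 ± 0.13), CHAC1 (−0.05 ± 0.19) and TRIB2 (−0.77 ± 0.36) were not called, and ERN1 was not tested. The TMED receptors, which sort cargo into vesicles, lay near the middle, with TMED1 higher at 0.74 ± 0.15, TMED2 at 0.08 ± 0.14, and both TMED10 probes lower at −0.60 ± 0.16 and −0.54 ± 0.13 except under the 75th percentile scaling for both probes and the normexp and authors' scalings for A_33_P3252093, where the sign turned.

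Within the polysomes of control cells, 23 member probes were called higher in the high than in the low pool and 14 lower of 58 tested (39.7% and 24.1%), beside 25% and 25.5% of 10463 catalog probes. Without the third OS low array 26 were higher and 17 lower, beside 32.2% and 30.9% of catalog probes. The splits were 24 and 4 under the 75th percentile scaling, 28 and 12 under normexp and 27 and 10 in the authors' normalization, again without a catalog share. The leading probes were again ASNS at 3.08 ± 0.17, CALR at 2.82 ± 0.17, PDIA3 at 2.67 ± 0.28 and 2.43 ± 0.23, SEC61A1 at 2.42 ± 0.20 and SRP54 at 2.34 ± 0.26.

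SEC22C differed by −2.25 ± 0.14 between the high and low pools, the SRP9 probes by −2.17, −2.11 and −1.98, OSTC by −1.36 ± 0.10, OSTCP1, a pseudogene of OSTC, by −1.27 and SSR4 by −0.90 ± 0.13. CHAC1 read 11.38, 10.83 and 11.35 in the low pool and 9.99, 9.82 and 10.34 in the high pool, a difference of −1.14 ± 0.19 (adjusted p = 7.98e-05), and DDIT4L differed by −0.67 ± 0.25 (adjusted p = 0.0368). The DDIT4L call was lost on leaving out any of 5 single arrays, each of the 3 control low arrays and control high 1 and 2, with adjusted p up to 0.103. Under the 75th percentile scaling OSTC, at −0.89, SSR4, at −0.57, CHAC1, at −0.55, and DDIT4L, at −0.05, were not called. TRIB3 (−0.29 ± 0.14), PPP1R15B (0.27 ± 0.14) and TRIB2 (−0.72 ± 0.36) were not called. Both comparisons use the same control high arrays, so they are not separate evidence.

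Of the genes outside the name rule, 8 unfolded protein response probes were higher and 6 lower in the high than in the untranslated pool of 15 tested, and 8 and 0 of 9 translocation, glycosylation and coat probes, beside the catalog's 42.2% and 31%. The medians of these lists were 1.58 and 1.29, against 0.35 for the catalog. P4HB, a disulfide isomerase, was higher by 2.85 ± 0.15, and ATF4 was lower at −1.53 ± 0.11. Between the high and low pools the counts were 8 and 5, and 4 and 1, beside 25% and 25.5%.

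**Figure D3:**
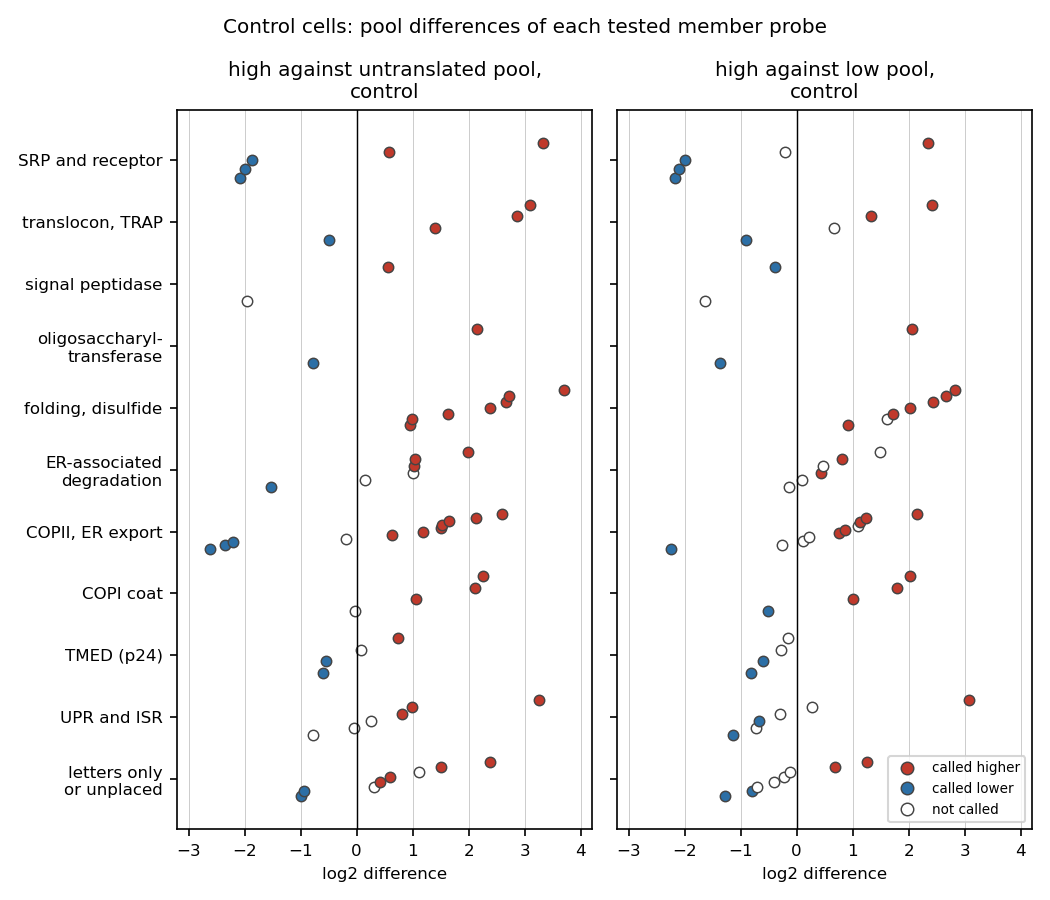
Log2 difference of each tested member probe between the high and untranslated pools (left) and the high and low pools (right) of control cells, by role. Red is called higher, blue called lower and white not called. All 7 folding probes lie above 0, between 0.95 and 3.70 in the left panel, and the 3 SRP9 probes lie near −2 in both panels in this normalization. The point at 3.70 is the dimmer CANX probe, which was not above background on the control untranslated arrays, so its size is not a measured difference.

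Upon OS the untranslated pool held the most calls in this normalization, while under the 75th percentile scaling it held 1 higher and 0 lower, against 1 and 10 in the low pool. Transcripts of folding enzymes, 3 of 4 tested COPI coat genes and ASNS made up a larger share of this pool, and those of SRP9, all 3 SEC22 genes, TMED10, CHAC1 and DDIT4L a smaller one. There were 13 probes called higher and 12 lower of 53 tested (24.5% and 22.6%), beside 15.8% and 15.7% of 8025 catalog probes. Of 6 tested folding probes 5 were higher, with a list median of 1.18, while the member and catalog medians were 0.04 and −0.04.

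CALR read 14.98, 15.02 and 14.92 in control and 16.04, 15.92 and 16.09 in OS, a difference of 1.04 ± 0.16 (adjusted p = 0.000104). The PDIA3 probe A_33_P3223923 read 7.53, 7.22 and 6.51 in control and 8.95, 8.73 and 9.22 in OS (1.88 ± 0.22, adjusted p = 9.22e-06), and the second probe gave 1.53 ± 0.28. In each of these the groups stood clear of each other. The third control value of A_33_P3223923 lay near the lowest catalog signal still above background on its array (6.42). PDIA4 differed by 1.31 ± 0.19 and CANX by 0.86 ± 0.14, and PDIA5, at 0.37 ± 0.19, was not called.

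ASNS read 13.18, 13.08 and 13.12 in control and 14.34, 14.21 and 14.50 in OS, a difference of 1.22 ± 0.17 (adjusted p = 4.02e-05). The channel subunit SEC61A1 was higher by 0.94 ± 0.19, with 11.89, 11.83 and 12.06 in OS, and RPN2 by 1.10 ± 0.20. COPG2 was higher by 1.48 ± 0.41, COPA, with overlapping groups, by 0.95 ± 0.32 and COPB1 by 0.56 ± 0.16, while COPZ1, at −0.26 ± 0.13, was not called. The COPG2, COPB1 and COPA calls were lost on leaving out any of 3, 4 and 7 single arrays, and that of COPA also with the slide as a block. SEC23A was higher by 0.47 ± 0.10, and 1 of 2 EDEM3 probes by 0.66 ± 0.17 (the other 0.32 ± 0.70).

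SEC22C read 11.36, 11.48 and 11.22 in control and a mean of 10.67 ± 0.03 in OS (SD, n = 3), below every control array, a difference of −0.69 ± 0.13 (adjusted p = 0.00106). SEC22A and SEC22B differed by −0.52 ± 0.11 and −0.48 ± 0.12, the SRP9 probes by −0.69 ± 0.19, −0.59 ± 0.14 and −0.46 ± 0.13, the TMED10 probes, whose groups overlapped, by −0.47 ± 0.15 and −0.37 ± 0.13, and SPCS3, a signal peptidase subunit, by −0.46 ± 0.14. CHAC1 read 10.04, 10.16 and 10.10 in control and 9.44, 9.23 and 9.31 in OS, a difference of −0.77 ± 0.19 (adjusted p = 0.00589). DDIT4L differed by −0.76 ± 0.25 (adjusted p = 0.0342). TRIB3 (0.28 ± 0.13), TRIB2 (−0.59 ± 0.36) and PPP1R15B (−0.22 ± 0.13) were not called.

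Of these 25 calls, 13 held when any 1 array was left out, those of CALR, CANX, both PDIA3 probes, PDIA4, ASNS, SEC61A1, RPN2, SEC23A, SEC22A, SEC22C, CHAC1 and the SRP9 probe A_33_P3339173. The count of probes called lower fell to 7 without control untranslated 1 or 2 and to 6 without OS untranslated 2 or 3. Averaging control untranslated replicates 1 and 2, for their shared label number, lost the calls of DDIT4L, SPCS3, COPA, ASNSD1 and both TMED10 probes. Without the third OS low array all 25 calls were kept and 16 higher and 17 lower were called, beside 22.3% and 25.5% of catalog probes. Under the 75th percentile scaling 1 was called higher and 0 lower, where the catalog as a whole was at a median of −0.01. With that scaling and without the third OS low array, CALR, CANX, both PDIA3 probes, PDIA4, ASNS, SEC61A1 and RPN2 kept their calls. Of the 13 calls named above, those of SEC22C, CHAC1 and SRP9 were kept too, and those of SEC23A and SEC22A were lost.

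Outside the name rule, 6 of 15 unfolded protein response probes were higher and 2 lower in the OS untranslated pool, and 2 and 1 of 9 translocation, glycosylation and coat probes, beside the catalog's 15.8% and 15.7%. The list medians were 0.19 and 0.03, against −0.04 for the catalog. Those higher included OS9, a lectin of ER-associated degradation (1.40 ± 0.19), WFS1, an ER membrane protein (1.23 ± 0.17), P4HB (1.14 ± 0.14), the DnaJ co-chaperone DNAJB11 (1.03) and DDOST, a core subunit of the oligosaccharyltransferase (1.18 ± 0.17). SERP1, which associates with the channel, was lower at −0.50.

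**Figure D4:**
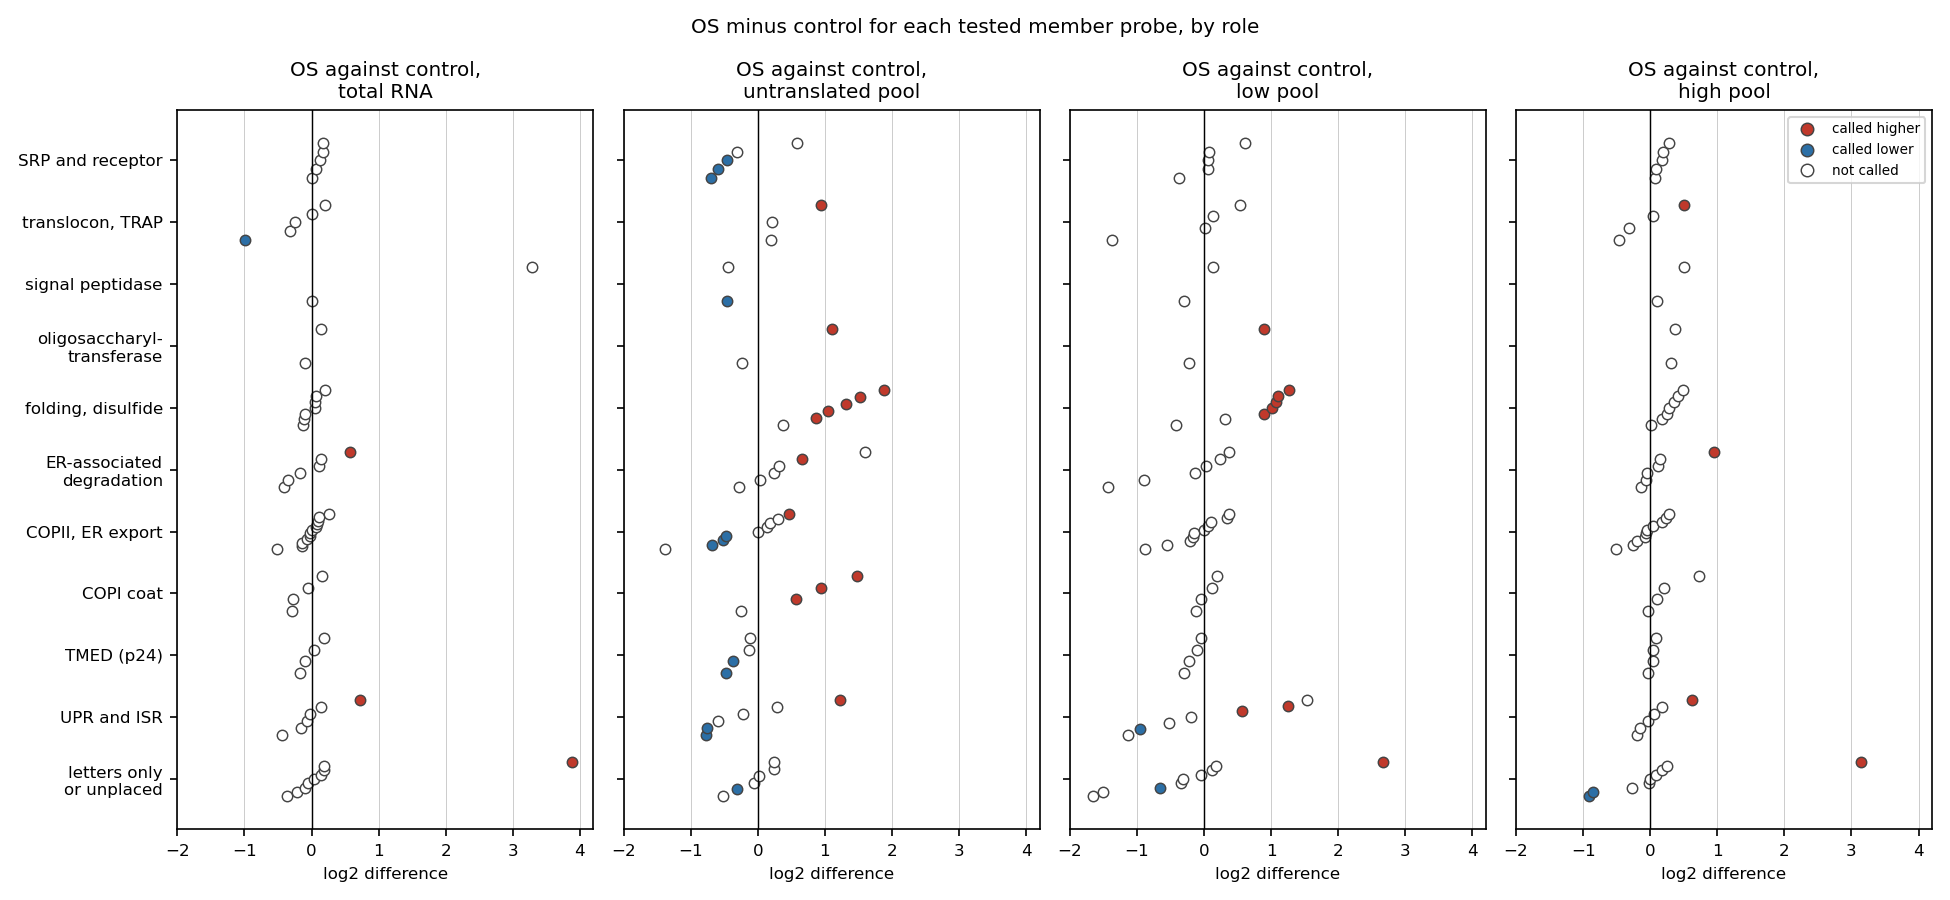
OS minus control log2 difference of each tested member probe, by role, in total RNA and in the untranslated, low and high pools. Red is called higher, blue called lower and white not called. The folding probes lie around 1 in the untranslated pool (list median 1.18) and near 0 in total RNA (list median 0.05). In the low pool the list median is 1.02, and the signs of CALR, CANX and 1 PDIA3 probe turned there under the 75th percentile scaling.

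In the low pool the folding genes again gave 5 of the 11 calls. PDIA4 was higher by 1.27 ± 0.20, CANX by 1.10 ± 0.15, CALR by 1.07 ± 0.17 and PDIA3 by 1.02 ± 0.28 and 0.89 ± 0.23, along with ASNS (1.26 ± 0.18), RPN2 (0.89 ± 0.21), TRIB3 (0.56 ± 0.14) and TMED11P (at least 1.84-fold), although under the 75th percentile scaling, where the catalog median was −1.01 in place of −0.18, the signs of CALR, CANX, ASNS, TRIB3, RPN2 and 1 PDIA3 probe turned. With that scaling and without the third OS low array no called member's sign turned, and 5 were called higher. DDIT4L (−0.95 ± 0.25) and one TMED7-TICAM2 read-through probe (−0.65 ± 0.19) were lower, the second TMED7-TICAM2 probe standing at −0.34 ± 0.17. This gave 9 higher and 2 lower of 60 tested (15% and 3.33%), beside 4.42% and 5.45% of 10806 catalog probes. The splits, for which no catalog share was computed, were 1 and 10 under the 75th percentile scaling, 9 and 4 under normexp and 8 and 2 in the authors' normalization.

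CALR read 14.90, 15.20 and 14.53 in control and 16.21, 15.68 and 15.95 in OS. PDIA4 read 9.45, 9.55 and 9.22 in control and 10.71, 10.40 and 10.91 in OS, and ASNS 13.42, 13.35 and 13.10 against 14.62, 14.28 and 14.74. The groups did not overlap for any of the 3 probes, and on them the third OS low array was above every control array too. DDIT4L read 10.76, 10.69 and 10.66 in control and 10.30, 10.10 and 8.86 in OS, the last on the third array.

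The third array also gave the extreme values of dim members. ERN1 read 5.64, 5.50 and 9.15 in OS low and was not called (1.53 ± 0.73), and SEL1L read 7.96, 8.07 and 3.76. Without that array 11 were higher and 1 lower, beside 5.86% and 4.69% of catalog probes, of which 9 were among the 11 main calls. TMED7-TICAM2 and the PDIA3 probe A_24_P101201 were lost, and HERPUD1 and 2 SEC24A probes were gained. The calls of CALR, CANX, PDIA4, ASNS and TMED11P held when any 1 array was left out, but no member was called when only the arrays compared were fitted. The count of those higher fell to 5 without control low 3, and those lower ranged from 0 without any one control low array to 9 without OS low 1 and 7 without OS low 2. CHAC1 (−0.53 ± 0.20), PPP1R15B (−0.20 ± 0.14) and TRIB2 (−1.13 ± 0.36, adjusted p = 0.0627) were not called. Outside the rule, 4 of 16 unfolded protein response probes were higher, P4HB (1.23), OS9 (1.16), ATF4 (0.84) and WFS1 (0.80), and of 9 other probes DDOST was higher (0.69) and MCFD2 lower (−0.65), beside the catalog's 4.42% and 5.45%.

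In the high pool, where transcripts carry many ribosomes, HERPUD1 and TRIB3 were higher as in total RNA. HERPUD1 read 15.00, 15.22 and 15.30 in control and 15.94, 16.32 and 16.09 in OS, a difference of 0.95 ± 0.12 (adjusted p = 5.05e-05). TRIB3 read 13.89, 13.64 and 14.03 in control and 14.50, 14.68 and 14.25 in OS (0.62 ± 0.14, adjusted p = 0.00749). Neither probe's groups overlapped. Both calls were lost under the 75th percentile scaling, with or without the third OS low array. That of TRIB3 was also lost when only the arrays compared were fitted.

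SSR4 was higher by 0.50 ± 0.13 (adjusted p = 0.0235) and TMED11P at least 2.2-fold, and both SEC14L1 probes were lower, at −0.92 ± 0.12 and −0.85 ± 0.10. These were 4 higher and 2 lower of 59 tested (6.78% and 3.39%), beside 3.57% and 2.83% of 10266 catalog probes. The SEC14L1 probe A_33_P3275751 read 13.89, 13.72 and 13.65 in control and 12.74, 13.06 and 12.71 in OS.

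No folding probe was called in the high pool by limma. At an unadjusted p under 0.05, 8 members in all were higher and 5 lower, but the catalog share at that threshold was not computed. CALR differed by 0.25 ± 0.16, the PDIA3 probes by 0.49 ± 0.28 and 0.35 ± 0.22, and PDIA4 by 0.28 ± 0.19. Nor did ASNS (0.18 ± 0.17), CHAC1 (0.06 ± 0.19), DDIT4L (−0.03 ± 0.25), PPP1R15B (−0.16 ± 0.14) or TRIB2 (−0.20 ± 0.36) pass the test. The call of TRIB3 was lost without control high 2 (adjusted p = 0.0595), when 2 members in all were called higher, and that of SSR4 without control high 1 or 2, OS high 1 or OS high 3 (adjusted p up to 0.117). Without the third OS low array 5 were higher and 3 lower, beside 7.03% and 6.29% of catalog probes. ATF4, outside the rule, was higher by 1.70 ± 0.11 (adjusted p = 2.28e-08) and was the only one of its list of 15 called, and 0 of 9 translocation, glycosylation and coat probes were called, beside the catalog's 3.57% and 2.83%.

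Whether the OS effect differed between the pools was tested directly as the shift, the difference between the high and untranslated pools in OS minus the same difference in control. A positive shift is called a move toward the high pool below, whichever of the pools changed, and a negative shift a move away. The 4 pool comparisons and the shift draw on the same arrays, so the shift restates the pool values with a test of their difference. There were 7 probes called toward the high pool and 8 away of 60 tested (11.7% and 13.3%), beside 8.04% and 8.03% of 10369 catalog probes.

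Moving toward the high pool were HERPUD1, SRP9 on 2 of 3 probes, all 3 SEC22 genes and OSTC. SEC22C shifted by 0.86 ± 0.20 (adjusted p = 0.0098), SEC22A by 0.80 ± 0.16 (adjusted p = 0.00427) and SEC22B by 0.72 ± 0.18 (adjusted p = 0.0159). For the 3 SEC22 genes the OS difference was negative in the untranslated pool and between 0.17 and 0.28, not called, in the high pool. SRP9 shifted by 0.97 ± 0.28 and 0.78 ± 0.21, and its remaining probe stood at 0.63 ± 0.20 with an adjusted p of 0.0505. HERPUD1 shifted by 0.71 ± 0.17 (adjusted p = 0.0137), from a difference of 0.24 ± 0.11 in the untranslated to 0.95 in the high pool.

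Moving away were ASNS, SEC61A1, CALR, PDIA3 on 1 of 2 probes, PDIA4, SEC23A and both SEC14L1 probes. PDIA3 shifted by −1.52 ± 0.32 (adjusted p = 0.00507), its other probe standing at −1.04 ± 0.40 (adjusted p = 0.12). SEC61A1 shifted by −1.40 ± 0.28 (adjusted p = 0.00396), with 14.08, 13.83 and 13.63 in the control high pool and 13.26, 13.22 and 13.67 in OS. ASNS shifted by −1.04 ± 0.25 and PDIA4 by −1.03 ± 0.28. CALR shifted by −0.79 ± 0.23, SEC23A by −0.66 ± 0.16 and SEC14L1 by −1.16 ± 0.17 and −1.09 ± 0.15. The mean high-pool values of CALR, PDIA3, PDIA4 and ASNS in OS were not below those in control, although OS high replicate 2 lay below some control arrays for each. Their OS difference was called in the untranslated pool and not in the high pool, while SEC14L1 was called lower in the high pool.

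The other stress-response members did not pass, with CHAC1 at 0.83 ± 0.27 (adjusted p = 0.0631), DDIT4L at 0.73 ± 0.35, TRIB2 at 0.39 ± 0.51, TRIB3 at 0.34 ± 0.19 and PPP1R15B at 0.06 ± 0.20. Without the third OS low array all 15 calls were kept and 12 were called toward and 15 away, beside 16.7% and 14.4% of catalog probes, with CHAC1, DDIT4L and the third SRP9 probe among those gained. Leaving out control high 1 lowered the count toward the high pool to 4, and 9 of the 15 calls held when any 1 array was left out, those of SEC22A, SEC22C, HERPUD1, PDIA3, ASNS, SEC61A1, SEC23A and both SEC14L1 probes. No shift was called under the 75th percentile scaling, and 2 toward and 13 away were called under it without the third OS low array. Outside the rule ATF4 shifted by 1.71 ± 0.16, SERP1 by 0.71 and 1 of 2 MBTPS1 probes by 0.63 toward the high pool (the other, at 0.44, was not called). WFS1 shifted by −1.31, OS9 by −1.03 and P4HB by −0.87 away, which made 3 and 3 of 15. SAR1B shifted by 0.67 and DDOST by −1.25, which was 1 and 1 of 9, beside the catalog's 8.04% and 8.03%.

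**Figure D5:**
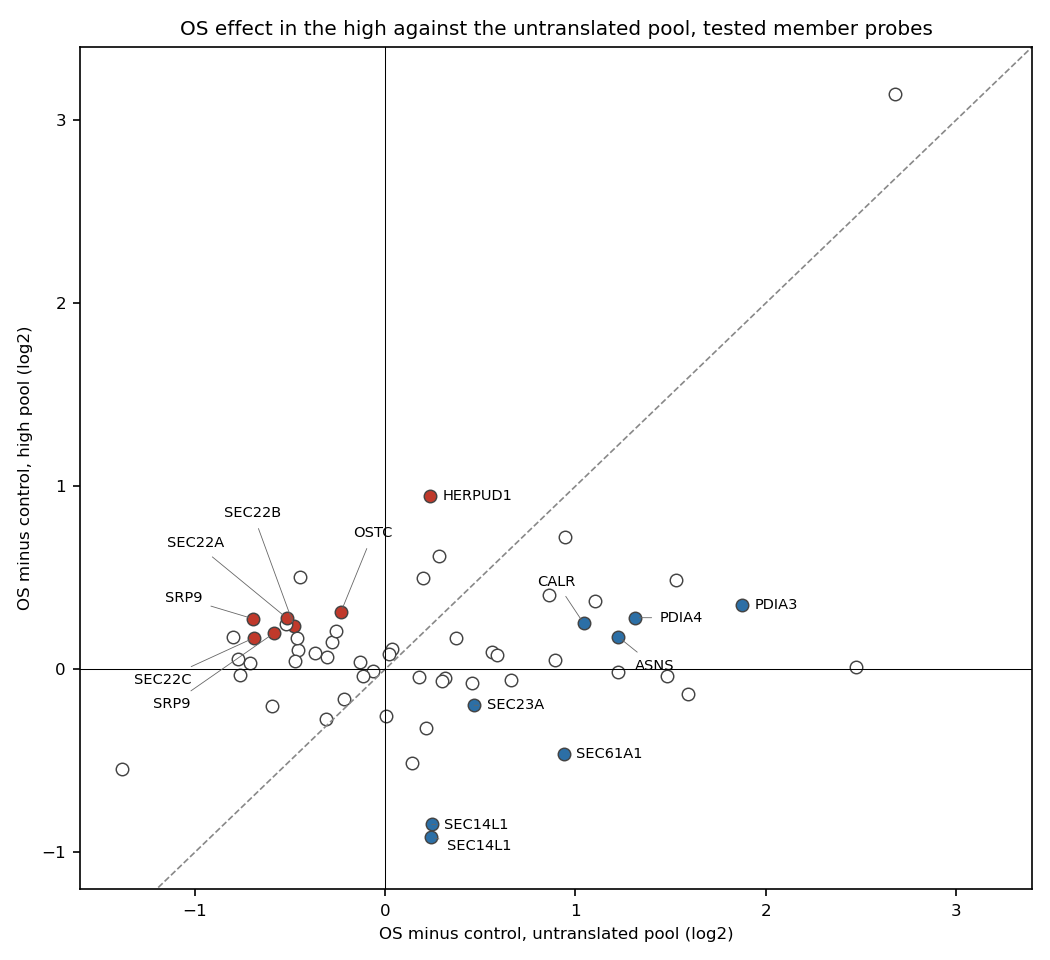
OS minus control log2 difference of each tested member probe in the untranslated pool (x axis) and in the high pool (y axis). The dashed line marks equal effects, and red and blue points are probes whose shift toward or away from the high pool was called. The probes that moved away, among them PDIA3 and ASNS, lie to the right, and SRP9 and the SEC22 probes lie to the left.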

How the data were processed

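The 24 arrays were 1-colour Agilent arrays. The authors deposited the Feature Extraction 10.7.3.1 output, with background-subtracted intensity per spot and a GRCh37 array design, and a series table of log2 values, which equalled quantile normalization over all probes. The submitters' notes name Partek. The processed signal was taken to log2 and quantile-normalized separately for 43911 lncRNA and 17448 catalog probes, without 178 probes carrying an outlier mark, and no spot was saturated. Probes that cleared the scanner's background mark in all 3 arrays of either group in a comparison were tested, in 1 limma 3.58.1 fit (R 4.3.3) over 8 groups, with Benjamini-Hochberg adjustment over all tested lncRNA and catalog probes. The fit was tested on simulated data.

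Members and lists were chosen with earlier results of these data known. Named were all stress-response members, the 4 most positive and 4 most negative calls of the other lists, split probes of a gene and called genes outside the rule. Others named (SEC11C, PDIA5, SRPRB, SEC63 and uncalled values set beside calls) were chosen after their values were seen. The array number limits the precision. Current symbols were matched for 62 member probes. Each of 3 slides held 1 array of every group, on 1 scan day. Same-numbered arrays deviated together (correlation over 0.1) in 8 of 21 pairs, so the numbers were not taken as pairs, and arrays of the same slide in 13 of 21, including all 3 pairs of control and OS untranslated arrays. Protein lengths were not analysed here.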

Additional observations from a re-analysis of the deposited data

Results flagged for a closer look

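The OS effect in the high pool differed from that in the untranslated pool for 15 member probes, by the limma test of the difference itself (adjusted p under 0.05). It was the more positive in the high pool for SRP9 (0.97 and 0.78), SEC22C (0.86), SEC22A (0.80), SEC22B (0.72), HERPUD1 (0.71) and OSTC (0.54). It was the more negative there for PDIA3 (−1.52), SEC61A1 (−1.40), SEC14L1 (−1.16 and −1.09), ASNS (−1.04), PDIA4 (−1.03), CALR (−0.79) and SEC23A (−0.66).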

How the results depend on the processing

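With 3 arrays per group and 1 unusual array, the scaling and the arrays in the fit set most of these counts. The cause of each move was not tested. Shares of catalog probes called were computed only for the main fit and for the fit without OS low replicate 3. Of called members, 1 of 4 in total RNA, 1 of 25 in the untranslated, 0 of 11 in the low and 1 of 6 in the high pool, 34 of 48 between high and untranslated, 23 of 37 between high and low pools and 0 of 15 shifts kept call and direction under every alternative tried. Leaving out any 1 array they were 3, 13, 5, 4, 45, 34 and 9.

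Under 75th percentile scaling the counts called higher and lower were 1 and 0 in total RNA, 1 and 0 in the untranslated pool, 1 and 10 in the low pool, 1 and 0 within the high pool, and 0 and 0 for the shift, with 2 lower between high and untranslated and 4 lower between high and low pools. With that scaling and without OS low replicate 3 they were 1 and 3 in total RNA, 7 lower in the untranslated pool, 5 higher in the low pool, 1 higher in the high pool, 3 and 8 lower in the control comparisons, and 2 and 13 for the shift. In the low pool the scaling gave CALR −0.38, CANX −0.037, ASNS −0.066, TRIB3 −0.73, RPN2 −0.41 and 1 PDIA3 probe −0.23. Between high and untranslated pools it gave, with or without that array, TMED10 0.67 and 1.05, OSTC 0.65, SSR4 0.35, ASNSD1 0.52 and OSTCP1 0.56.

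Normexp correction gave 0 lower in total RNA, 4 lower in the low pool and 7 lower between high and untranslated pools, with TMED10 at 0.036 and SSR4 at 0.12. The authors' table gave 8 lower there, with TMED10 at 0.0076 and SSR4 at 0.026. No filter gave 0 lower in total RNA, 4 lower in the untranslated pool, 0 lower in the low pool and shifts of 2 and 5. The strict filter and the slide as a block each gave 0 lower in total RNA. Fitting only the arrays compared gave 5 lower in total RNA and 0 and 0 in the low pool. Averaging control untranslated replicates 1 and 2 gave 0 lower in total RNA and 7 lower in the untranslated pool.

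With the replicate number as a block, the count called lower in total RNA was 0, and the other 13 counts stayed within 1.5 times. Leaving out 1 array, the counts higher and lower ranged over 3 to 4 and 0 to 3 in total RNA, 10 to 16 and 6 to 17 in the untranslated, 5 to 11 and 0 to 9 in the low and 2 to 6 and 2 to 3 in the high pool, 33 to 38 and 12 to 14 between high and untranslated, 22 to 26 and 12 to 17 between high and low pools, and 4 to 12 and 6 to 15 for the shift. Those lower in total RNA were 0 without any of 17 arrays and 3 without OS low replicate 3. An alternative on protein length was not run.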
